A study of Mus musculus with 4 samples.

Results

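The AP-1 transcription factor genes described here are Fos, Fosb, Fosl1 and Fosl2 of the FOS family, Jun, Junb and Jund of the JUN family, and Atf3. They were chosen by name, and all 8 were found among the 52459 genes listed in the count table. Of these, 7 were among the 13692 genes that passed a filter on low values, and Fosl1 did not pass it. The measurements were RNA-seq read counts of intestinal stem cells (ISCs) sorted from the small intestinal crypts of WT female mice of the C57/Bl6 strain, either young (2 months, ISC_2mth) or old (22 months, ISC_22mth). Each of the 4 libraries, 2 per age, was made from a pool of 5 animals, and cells of all pools were released from crypts by the same enzymatic digestion and sorted by the same surface antibodies before RNA extraction. RNA was amplified along the whole transcript by single primer isothermal amplification (SPIA), without molecular identifiers.

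AP-1 is a dimer of basic leucine zipper (bZIP) proteins that binds DNA at a short palindromic site. FOS proteins do not pair with themselves and need a JUN partner, whereas JUN proteins can pair with FOS, JUN or ATF proteins. Fos, Fosb, Jun, Junb and Atf3 are immediate early genes: their transcription rises within minutes of growth factor or stress signals through MAP kinases, and their mRNAs are short-lived. In the intestinal epithelium AP-1 is known for its link to proliferation and regeneration downstream of growth factor, Wnt and injury signals.

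Fosb was the AP-1 member whose level differed between ages in the test, and the promoters of Fosb, of Fos and Jun, and of Fosl2 are printed to show how the called gene and the most abundant members are built at their start. Each line gives 250 bases before to 50 bases after the transcript start of RefSeq (build GRCm38.p6), read 5′ to 3′ on the strand of the gene. Capitals mark matches to a CRE half-site (TGACG), a Jun-type site (TGACATCA) or a TATA box (TATAAA), which were searched on both strands together with the full CRE (TGACGTCA, which contains the half-site), the AP-1 site (TGANTCA) and the CArG box bound by SRF.
Fosb, chr7:19309996-19310295, minus strand: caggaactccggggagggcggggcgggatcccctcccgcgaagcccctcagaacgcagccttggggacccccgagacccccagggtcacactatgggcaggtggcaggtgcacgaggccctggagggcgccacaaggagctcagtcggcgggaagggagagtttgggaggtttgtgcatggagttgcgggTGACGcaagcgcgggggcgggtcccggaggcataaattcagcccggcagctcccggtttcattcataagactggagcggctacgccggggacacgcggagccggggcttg
Fos, chr12:85473640-85473939, plus strand: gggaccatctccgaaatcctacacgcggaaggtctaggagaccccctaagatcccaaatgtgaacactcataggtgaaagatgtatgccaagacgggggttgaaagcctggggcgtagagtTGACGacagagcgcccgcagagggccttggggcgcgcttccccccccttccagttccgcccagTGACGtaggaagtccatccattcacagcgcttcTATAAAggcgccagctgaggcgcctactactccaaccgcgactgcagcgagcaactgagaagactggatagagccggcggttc
Jun, chr4:95052173-95052472, minus strand: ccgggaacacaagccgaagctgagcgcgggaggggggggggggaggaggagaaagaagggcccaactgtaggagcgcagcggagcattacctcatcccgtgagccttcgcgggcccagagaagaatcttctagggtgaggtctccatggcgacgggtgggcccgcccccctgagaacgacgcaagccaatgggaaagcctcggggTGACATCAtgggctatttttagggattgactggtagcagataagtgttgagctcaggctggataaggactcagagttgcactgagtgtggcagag
Fosl2, chr5:32136222-32136521, plus strand: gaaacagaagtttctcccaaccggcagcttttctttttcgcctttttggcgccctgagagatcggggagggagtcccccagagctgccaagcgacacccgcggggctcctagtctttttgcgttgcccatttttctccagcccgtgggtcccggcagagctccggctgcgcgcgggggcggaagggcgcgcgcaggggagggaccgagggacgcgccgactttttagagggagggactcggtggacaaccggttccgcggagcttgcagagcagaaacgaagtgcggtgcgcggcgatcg

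The Fosb window held 1 CRE half-site, starting 60 bases before the transcript start, and none of the other motifs. The Fos window held 2 CRE half-sites, at 129 and 66 bases before the start, and a TATA box 33 bases before it. The Jun window held 1 Jun-type site, 45 bases before the start, and the Fosl2 window held no match. Of the other members, Junb had a CRE half-site 106 bases before the start and a TATA box in the first 6 bases after it, Atf3 had a CRE half-site on the opposite strand 7 bases before the start, and Jund had no match. The full CRE, the AP-1 site and the CArG box were found in 0 of the 7 windows that matched a member. Sequence more than 250 bases before the start was not searched, so a promoter may hold such sites further upstream. A CRE half-site was present in 20.8% of all 32851 windows of this length, a TATA box in 13.6%, an AP-1 site in 7.81%, a Jun-type site in 3.62%, a full CRE in 1.79% and a CArG box in 1.63%. A match of letters is a description of the window, not evidence of a bound site. The RefSeq start of Junb lay 30 bases upstream of the GENCODE start, so that its TATA box lies before the latter. The RefSeq start of Jund lay 1210 bases upstream of the start of the GENCODE gene, so its window covers other sequence than that start. The RefSeq starts of Fosl2 and Atf3 lay 671 and 34706 bases downstream of the outermost GENCODE start, so their windows do not cover that start.

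**Figure D1:**
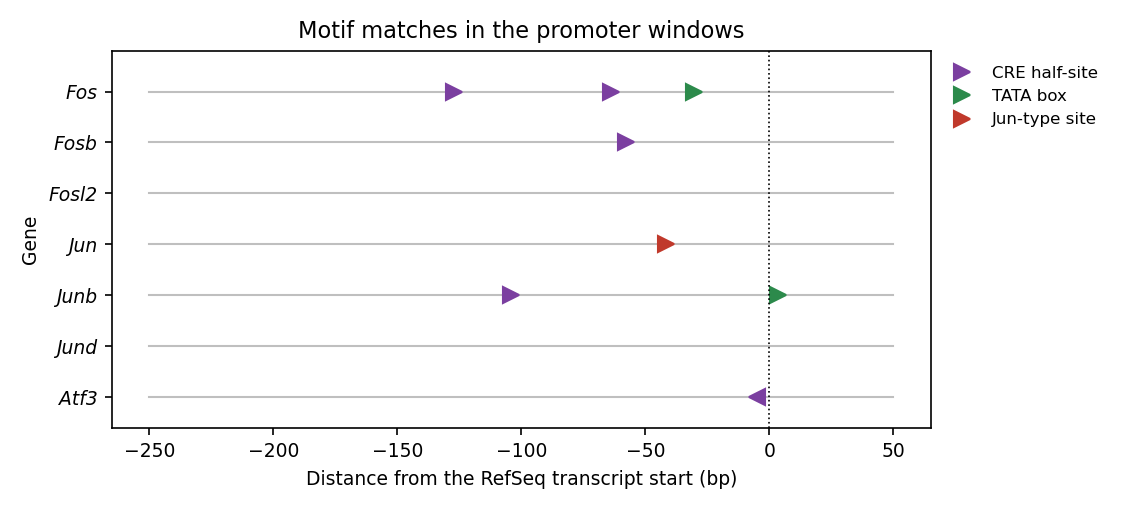
Motif matches in the promoter windows of 7 AP-1 members, with the distance from the RefSeq transcript start in bp on the x axis and 1 line per gene. Arrowheads point along the strand that carries the match, and CRE half-sites are seen in Fos, Fosb, Junb and Atf3, a Jun-type site in Jun, and no match in Fosl2 and Jund.

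The libraries held between 11662654 and 15975698 counts on genes. Mitochondrially encoded genes took 62.6% and 65.7% of them in the ISC_2mth pools against 73.8% and 72.9% in the ISC_22mth pools, which left between 3852178 and 4593004 counts on other genes. Values below are normalized CPM, which set counts relative to library size after TMM scaling, a correction for such differences in composition, and 3 counts corresponded to between 0.199 and 0.246 normalized CPM. The label of stem cells was set beside 13 ISC markers, all of which passed the filter. Lgr5, the receptor that defines crypt base stem cells, stood at 248, 214, 209 and 206 normalized CPM (ISC_2mth replicates 1 and 2, then ISC_22mth replicates 1 and 2, the order used throughout). The summed markers stood at 3180, 2990, 2930 and 3250, of which Olfm4 alone made up 1300, 1230, 1110 and 1290. Cd24a, Cd44, Ephb2, Epcam and Alcam encode antigens of the sort, so their presence does not test the label. Markers of other cell types were also present and are given below. Replicate libraries differed by more than sampling noise (chi-square per gene 10.3 in ISC_2mth and 7.53 in ISC_22mth). The p-values weigh the age difference against a spread between pools that is estimated with information shared across genes. Each pool averages over 5 animals, so the spread between single animals was not measured. With 2 libraries per age an exact permutation test of a single gene cannot go below p = 0.333, so ages were compared by edgeR's quasi-likelihood test, fitted across all genes.

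Fosb fell with age. Its counts were 83 and 91 in the young pools and 25 and 26 in the old pools, which are 5.73, 6.03, 1.89 and 2.13 normalized CPM. Both old pools lay far below both young pools, and replicates of an age were close to each other. The mean fell from 5.88 ± 0.215 to 2.01 ± 0.168 normalized CPM (SD, n = 2), so that old ISCs held 34.3% of the young level, a 2.92-fold difference. The log2 fold change was -1.55 (SE 0.32, 95% interval -2.22 to -0.87), with an adjusted p of 0.0151 by edgeR's quasi-likelihood test with Benjamini-Hochberg adjustment (FDR). Without ISC_2mth replicate 1 or replicate 2, which leaves 1 young pool assumed to vary like the old ones, the log2 fold change was -1.58 and -1.51 and the call was lost (FDR 0.0545 and 0.0593). By p-value it ranked 110 among the genes tested, and 2.24% of these genes had a lower log2 fold change. The FOSB protein partners JUN proteins and, like FOS, carries a transactivation domain. In bulk RNA, fewer cells that express a gene and less RNA per cell cannot be told apart.

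At FDR below 0.05, 1 of the 7 tested members was lower in ISC_22mth, against 0.628% of all genes tested, and 0 of 7 were higher, against 1.63% (2.26% in either direction), and DESeq2, limma voom and edgeR's likelihood ratio test gave the same counts. With 1 young pool left out, whichever it was, 0 members were called lower, and without ISC_22mth replicate 2 there were 2 (Fosb and Jun). At an unadjusted p below 0.05, 2 of 7 members (Fosb and Fosl2) were lower and 0 higher, and 1048 of all 13692 genes were lower and 1268 higher. Both old pools lay below both young pools for 3 members (Fosb, Fosl2 and Junb), against 23.6% of all genes. The log2 fold change was negative for 6 of 7 members, with a median of -0.38, and for 6921 of the 13692 genes tested, with a median of -0.01. Of all genes called, 27.8% were lower in old ISCs. Scaled by total counts alone, which include the mitochondrial counts, 97.9% of calls were lower, the median of all genes moved to -0.50, and Fos, Fosl2 and Jun joined Fosb among the calls. Relative to that median, their log2 fold changes were -0.38, -0.31 and -0.22, and that of Fosb -1.54.

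**Figure D2:**
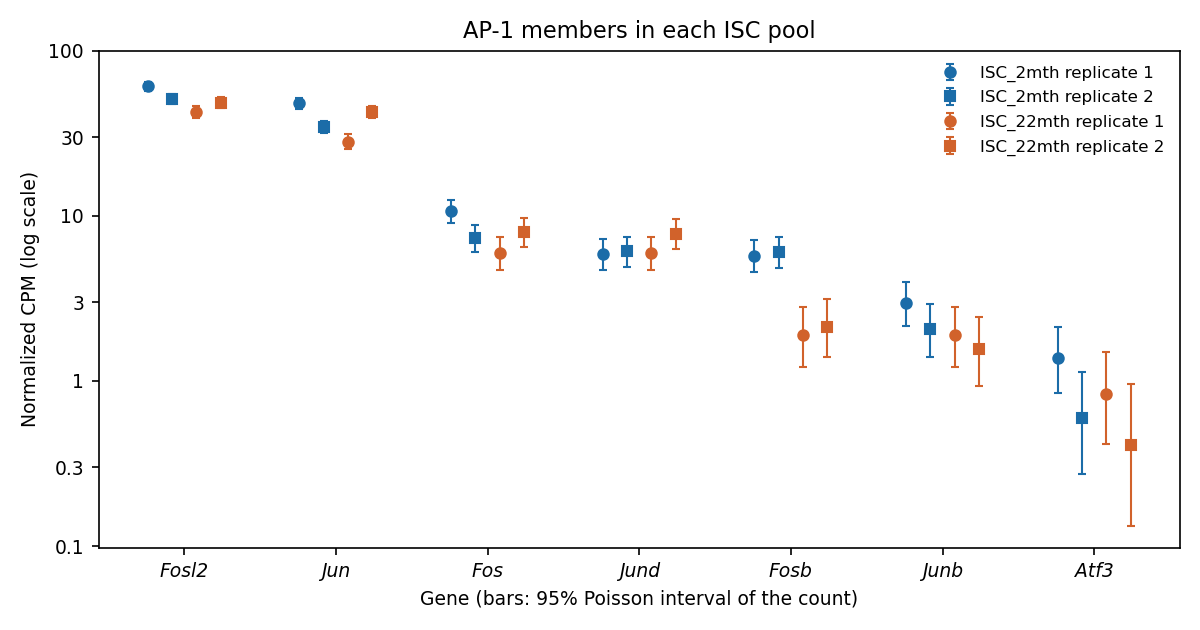
Normalized CPM (y axis, log scale) of the 7 AP-1 members that passed the filter, in the 2 ISC_2mth and 2 ISC_22mth libraries, with bars for the 95% Poisson interval of the count, which covers counting error only. The intervals of both old pools lie below those of both young pools for Fosb, whereas for the other 6 genes the interval of at least 1 old pool overlaps that of a young pool.

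Neither of the other FOS family genes tested passed. Fos, the immediate early gene that names the family, had counts of 155, 111, 79 and 97, or 10.7, 7.36, 5.98 and 7.94 normalized CPM. The ages overlapped, as ISC_2mth replicate 2 lay below ISC_22mth replicate 2. Its means were 9.02 ± 2.36 and 6.96 ± 1.39 normalized CPM (SD, n = 2), and the log2 fold change of -0.38 (SE 0.25, 95% interval -0.90 to 0.15) did not pass the test (FDR 0.474, edgeR). Leaving out replicate 1 or 2 of ISC_2mth gave -0.08 and -0.63, and leaving out replicate 1 or 2 of ISC_22mth gave -0.18 and -0.59, so each single pool moved the size of the Fos difference. Fosl2 encodes FRA2, a FOS protein without a strong transactivation domain. It was the member with the most counts, 884, 772, 559 and 592, or 61.0, 51.2, 42.3 and 48.5 normalized CPM. Both old pools lay below both young pools, by a small margin. The log2 fold change of Fosl2 was -0.31 (SE 0.14, 95% interval -0.59 to -0.02), with an unadjusted p of 0.0398 and an FDR of 0.271 (edgeR), and with 1 pool left out it was between -0.43 and -0.17. Fosl1, which encodes the related FRA1, was near the limit of detection, with 0, 2, 0 and 0 counts, where 3 counts would be 0.207, 0.199, 0.227 and 0.246 normalized CPM. It was not tested, and no fold is given.

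None of the JUN family genes passed the test. Jun, the main partner of FOS proteins, had counts of 697, 520, 372 and 521, or 48.1, 34.5, 28.2 and 42.7 normalized CPM. The lowest and the second highest values were both in old pools, and the replicates of each age were further apart than their counting error. The means were 41.3 ± 9.64 and 35.4 ± 10.3 normalized CPM (SD, n = 2), with a log2 fold change of -0.22 (SE 0.18, 95% interval -0.61 to 0.16, FDR 0.576 by edgeR). Leaving out ISC_22mth replicate 2 gave -0.55 (FDR 0.0269), and leaving out ISC_2mth replicate 1 or ISC_22mth replicate 1 gave 0.04 and 0.05, so the direction of Jun rests on single pools. Junb, a JUN protein that activates more weakly than JUN, had counts of 43, 31, 25 and 19, or 2.97, 2.05, 1.89 and 1.56 normalized CPM. The old pools were the lower ones, with a gap between ISC_2mth replicate 2 and ISC_22mth replicate 1 that was smaller than the counting error. Its log2 fold change was -0.54 (SE 0.45, 95% interval -1.47 to 0.40, FDR 0.581 by edgeR), between -0.78 and -0.25 with 1 pool left out. Jund, the JUN gene known for steady expression rather than early induction, had counts of 85, 92, 79 and 95, or 5.86, 6.10, 5.98 and 7.78 normalized CPM. The first 3 pools were alike and ISC_22mth replicate 2 was the highest. Its log2 fold change was 0.20 (SE 0.25, 95% interval -0.33 to 0.73, FDR 0.741 by edgeR), and it was 0.00 without ISC_22mth replicate 2. With offsets for GC content and length, the log2 fold changes of Jund, Junb and Fosl2 were 0.42, -0.33 and -0.18, with none of them called.

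Atf3, a stress-induced bZIP gene whose protein pairs with JUN and often represses, was the member nearest to the limit of detection among those tested. Its counts were 20, 9, 11 and 5, or 1.38, 0.596, 0.832 and 0.409 normalized CPM. The ages overlapped, and the replicates of each age differed from each other by more than the means of the ages did. The log2 fold change of -0.65 had an SE of 0.81 and a 95% interval of -2.34 to 1.04 (FDR 0.737, edgeR), which leaves changes in both directions within the interval.

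**Figure D3:**
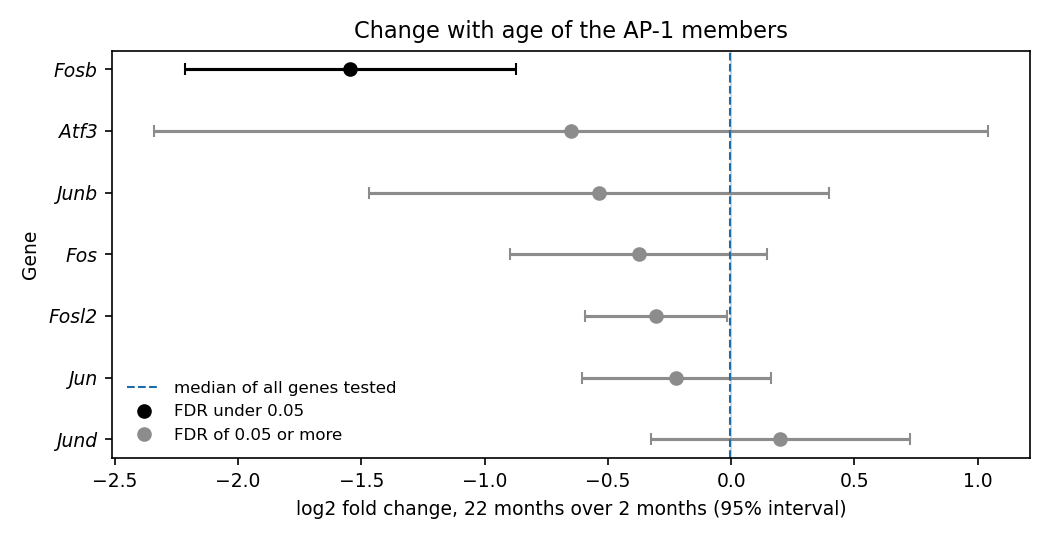
Log2 fold change of ISC_22mth over ISC_2mth (x axis) of the 7 AP-1 members tested, with 95% intervals from edgeR's quasi-likelihood fit and the median of all genes as a dashed line. The interval of Fosb (-2.22 to -0.87) lies well below 0, that of Fosl2 ends just below 0, and the other 5 span it.

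The change of Fosb was also seen against the other members, in ratios that do not depend on the scaling between libraries. Per 100 Jund counts there were 97.6 and 98.9 Fosb counts in the young pools against 31.6 and 27.4 in the old. Per 100 Fos counts there were 53.5, 82.0, 31.6 and 26.8, per 100 Fosl2 counts 9.39, 11.8, 4.47 and 4.39, and per 100 Jun counts 11.9, 17.5, 6.72 and 4.99. Both old pools lay below both young pools in each of these ratios and in the ratio to Junb (193, 294, 100 and 137). In the ratio to Atf3, with its low counts, the ages overlapped (415, 1010, 227 and 520). The difference between the change of Fosb and that of another member was not tested. The interval of the log2 fold change of Fosb did not overlap those of Fosl2, Jun and Jund, and overlapped those of Fos, Junb and Atf3.

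**Figure D4:**
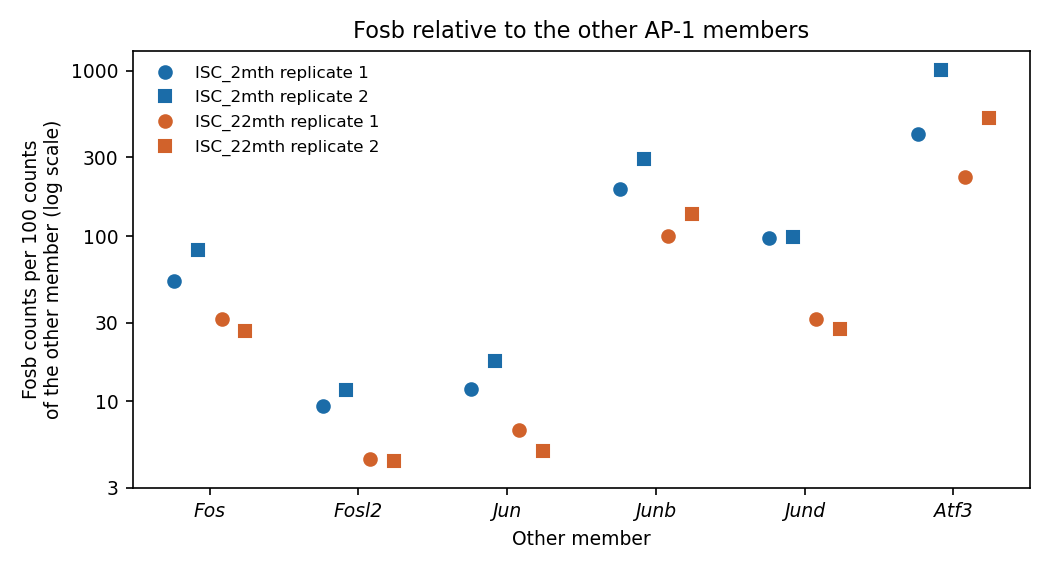
Fosb counts per 100 counts of each other tested AP-1 member (y axis, log scale) in the 4 libraries. Both old pools sit below both young pools for Fos, Fosl2, Jun, Junb and Jund, and the ages overlap for Atf3.

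Levels of different genes can be compared only per length, here as normalized CPM per kb of exonic sequence. Jund shares 877 of its 1668 bp of exonic sequence with a gene on the opposite strand. If reads there were not counted, its level per length, its rank and share, and the JUN family sums would be too low. In young ISCs Jun led with 12.9 ± 3.02 (SD, n = 2), followed by Fosl2 (5.79 ± 0.718), Fos (3.84 ± 1.0), Jund (3.59 ± 0.0983), Junb (1.09 ± 0.28), Fosb (0.942 ± 0.0344), Atf3 (0.459 ± 0.257) and Fosl1 (0.0326 ± 0.0461). Fos and Jund, and Junb and Fosb, did not differ beyond the spread of the young pools, and the other neighbours in this order did not overlap. In old ISCs the order was Jun (11.1 ± 3.22), Fosl2 (4.69 ± 0.452), Jund (4.12 ± 0.764), Fos (2.96 ± 0.591), Junb (0.749 ± 0.103), Fosb (0.322 ± 0.0269) and Atf3 (0.288 ± 0.139), with Fosl1 at 0. Here Fosl2 and Jund, and Fosb and Atf3, overlapped between pools, and both values of Fosb lay below those of Junb. Over the longest coding transcript instead, which leaves out the retained introns annotated in Fosb and Fosl2, normalized CPM per kb of Fosb was 1.51, 1.59, 0.50 and 0.563 and that of Junb 1.64, 1.14, 1.05 and 0.86, so these overlapped in young and not in old ISCs by this length too. By the same length Fosl2 was 6.47 and 7.42 and Jund 3.58 and 4.66 in old pools, so this pair did not overlap. In old pools this length also separated Fosb from Atf3 (0.42 and 0.206) and made Fos (2.84 and 3.77) overlap Jund.

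Jun took between 42.4% and 48.4% of the summed level per length of the 8 members in each library, and Fosl2 between 18.1% and 21.1%. Fosb took 2.84% and 3.85% in the young pools against 1.45% and 1.23% in the old, a small part of the AP-1 mRNA at either age. The share of Jund was 10.9%, 14.6%, 17.2% and 16.9%, with both old pools above both young pools. The FOS family summed to 11.8, 9.44, 7.21 and 8.73 and the JUN family to 19.9, 15.4, 13.2 and 18.7 normalized CPM per kb. The JUN sums overlapped between ages and the FOS sums did not. The ratio of the FOS sum to the JUN sum was 0.592, 0.615, 0.545 and 0.466, lower in both old pools than in both young pools.

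Over the 4 libraries, the patterns of Fos and Jun were the most alike among the members, with a Euclidean distance of 0.19 between their centred log2 normalized CPM, followed by Fos and Fosl2 (0.26) and Fosl2 and Jun (0.33). These 3 genes were lowest in the same library, ISC_22mth replicate 1. The pattern of Fosb was far from that of each other member, at distances between 1.13 (Junb) and 1.71 (Jund). That of Atf3, with its low counts, was also far from most members, at distances between 0.62 (Junb) and 1.47 (Fosb). Of all genes tested, the 5 with the pattern most like that of Fosb were Gm20692 (distance 0.07), Camk2a (0.167), Gm11380 (0.188), Slc25a47 (0.21) and Bbs9 (0.222). The first 4 rested on between 3 and 19 counts per library and did not pass the test (FDR between 0.317 and 0.418, edgeR). Bbs9, a subunit of the ciliary BBSome, had counts of 156, 168, 52 and 59 and a log2 fold change of -1.32 (FDR 0.00574, edgeR). Each distance is a description over 4 values.

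Some members share exonic sequence with a gene on the opposite strand, and the strand setting of the counting is not given in the sources used here, so reads in these stretches cannot be assigned to 1 gene with certainty. Overlaps covered 1163 bp of Fosl1 (with Ccdc85b), 877 bp of Jund (with Gm11175), 232 bp of Jun (with Junos) and 173 bp of Junb (with Prdx2). Ccdc85b had between 0 and 3 counts and Gm11175 had 0 in each library. Junos, the antisense RNA of Jun, had counts of 31, 17, 17 and 21 (FDR 0.939, edgeR), and Prdx2, a peroxiredoxin, 511, 496, 425 and 414 (FDR 0.911). Fos, Fosb, Fosl2 and Atf3 had no such overlap, and none of their stretches of 50 nt were found in transcripts of another gene. Fosb lies at chr7:19302696-19310051 on the minus strand of GRCm38 (GENCODE vM21), and its longest coding transcript has 4 exons, as have those of the other FOS genes and Atf3. Jun (chr4:95049034-95052222), Junb (chr8:84974484-84978718) and Jund (chr8:70698949-70700616) are genes with 1 exon.

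Other bZIP genes whose proteins can pair with AP-1 members were measured by 17 listed genes, of which 11 passed the filter, 2 were higher in old ISCs and 0 lower (3 and 0 at an unadjusted p below 0.05, median log2 fold change -0.09). Atf1, of the CREB family, rose from 49.1 ± 6.85 to 73.2 ± 4.87 normalized CPM (SD, n = 2, log2 fold change 0.58, FDR 0.0276, edgeR). Maf, a large MAF factor, rose from 3.73 ± 0.584 to 8.27 ± 1.74 (1.15, FDR 0.0298). Both calls were lost without ISC_2mth replicate 2 (FDR 0.239 for Atf1 and 0.142 for Maf) and under total counts alone (FDR 0.70 and 0.0768), Atf1 also with offsets for GC content and length (0.0685), and Maf under DESeq2 (0.103) and without ISC_2mth replicate 1 (0.051) or ISC_22mth replicate 2 (0.0882). Where these calls were lost, the log2 fold change was between 0.08 (total counts alone) and 0.51 for Atf1 and between 0.66 (total counts alone) and 1.32 for Maf. Under total counts alone, 4 of the 11 were called lower and 0 higher. Atf4, the effector of the integrated stress response, stood at 43.3 and 56.8 normalized CPM in young and old ISCs (FDR 0.131).

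Of 23 MAP kinases and related kinases upstream of AP-1, 21 were tested and 0 passed (median log2 fold change 0.07, with 2 lower and 2 higher at an unadjusted p below 0.05). The 3 of lowest p were Map2k7, a kinase of JNK (24.6 and 18.6 normalized CPM in young and old ISCs, FDR 0.209), Map2k5, a kinase of ERK5 (9.59 and 6.60, FDR 0.23), and Mapk9, which encodes JNK2 (36.0 and 44.7, FDR 0.249). SRF and the ternary complex and MRTF cofactors that act with it on the promoters of immediate early genes were all tested, and 0 of 6 passed, also at an unadjusted p below 0.05. For 5 of these 6 the log2 fold change was negative (median -0.35), against 6921 of all 13692 genes tested. For 4 both old pools lay below both young pools and for 0 above, against 3229 and 3288 of all 13692 genes. Srf itself stood at 12.4 ± 1.89 and 9.64 ± 0.0378 normalized CPM (SD, n = 2, FDR 0.377), Elk4 at 49.3 and 42.4 (FDR 0.434), and Elk3 had 3, 21, 5 and 1 counts (FDR 0.457). DESeq2, limma voom and edgeR's likelihood ratio test also called 0 genes of either list, whereas 12 of the kinases and 5 of the SRF list were called lower under total counts alone.

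Of 13 factors that act on the turnover of AP-1 mRNA and protein, or dephosphorylate its kinases, 0 passed the test. For 10 the log2 fold change was negative (median -0.19), against 6921 of all 13692 genes tested. At an unadjusted p below 0.05, 1 was lower and 0 higher. Khsrp, which binds AU-rich mRNA, stood at 49.1 and 39.7 normalized CPM (FDR 0.263). Dusp1, a MAP kinase phosphatase and itself an immediate early gene, had counts of 87, 98, 52 and 56 and means of 6.25 ± 0.348 and 4.26 ± 0.461 normalized CPM (SD, n = 2, FDR 0.308), with both old pools below both young pools. Dusp4 stood at 1.35 and 0.558 normalized CPM (FDR 0.405). The other tools also called 0 of them, and 7 of the 13 were called lower under total counts alone.

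Other immediate early genes were represented by 32 listed genes, of which 21 were tested, 1 was lower and 0 were higher (3 and 3 at an unadjusted p below 0.05), with 7 called lower under total counts alone. The median log2 fold change was -0.19. For 7 of the 21 both old pools lay below both young pools and for 4 above, against 3229 and 3288 of all 13692 genes tested. The gene called was Egr1, a zinc finger factor induced together with Fos through SRF. Its counts were 669, 518, 254 and 327, and it fell from 40.2 ± 8.37 to 23.0 ± 5.35 normalized CPM (SD, n = 2, log2 fold change -0.81, SE 0.18, FDR 0.02, edgeR). Without ISC_2mth replicate 1, the log2 fold change of Egr1 was -0.58 (FDR 0.20). Cyr61, a secreted matrix protein and YAP target, stood at 4.37 ± 0.842 and 1.99 ± 0.667 normalized CPM (FDR 0.122) and was called without ISC_22mth replicate 2 (FDR 0.0291). Mcl1, an anti-apoptotic gene, stood at 71.8 and 90.6 (FDR 0.178). Of 12 heat shock genes, which encode chaperones, 9 were tested and 0 called (0 also at an unadjusted p below 0.05). They summed to 1280, 1400, 1220 and 1500 normalized CPM, most of it Hsp90ab1 (831, 877, 700 and 939). The stress-inducible Hspa1a (2, 7, 0 and 0 counts) and Hspa1b (5, 8, 0 and 0 counts) did not pass the filter and were not tested. Their few counts were in young pools alone. What the levels of the heat shock genes have to do with the lower Fosb level was not tested.

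Among 30 genes known as AP-1 targets, 14 were tested, 1 was lower and 0 were higher (1 and 0 at an unadjusted p below 0.05), with a median log2 fold change of 0.04. The gene called was Bcl2l11, which encodes the pro-apoptotic BIM, and it fell from 20.2 ± 0.0519 to 12.5 ± 0.802 normalized CPM (SD, n = 2, log2 fold change -0.69, SE 0.17, FDR 0.041, edgeR). The call was lost under DESeq2 (0.116), with the GC and length offsets (0.0626), and without ISC_2mth replicate 1 (0.197), ISC_2mth replicate 2 (0.109) or ISC_22mth replicate 2 (0.0583), with log2 fold changes between -0.70 and -0.63 in these 5 cases. Mmp7, a protease of Paneth cells, stood at 21.3 and 28.0 normalized CPM (FDR 0.349) and was called higher without ISC_22mth replicate 2 (log2 fold change 0.74, FDR 0.00189), and Cd44, a surface marker used in the sort, at 130 and 110 (FDR 0.365). Under total counts alone, 5 of the 14 were called lower.

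Genes of other cell types also differed between the ages in which Fosb fell. Enterocyte markers summed to 492 and 632 normalized CPM in young and 991 and 906 in old pools, and 3 of 8 were higher (FDR below 0.05). Paneth cell markers summed to 1060, 836, 2410 and 962, and 3 of the 8 tested were higher. Goblet cell markers summed to 1950, 2560, 2660 and 2070 with 0 of 7 called (0 also at an unadjusted p below 0.05), and enteroendocrine and tuft markers to 43.1, 153, 133 and 97.8 with 1 of 8 called higher. Leukocyte markers summed to 15.3, 16.4, 23.6 and 23.1, nearly all of it Itgam and Cd68, the 2 of 14 that were tested. Itgam was called higher (log2 fold change 0.78, FDR 0.0296), whereas Cd68 stood at 4.35, 2.72, 2.27 and 1.80 normalized CPM (-0.79, FDR 0.321). Cd3g, Cd79a, Itgax and Adgre1 had 0 counts in each library and Ptprc had 2 counts in all. Traces were seen of Cd8a (1, 0, 4 and 3 counts), Ms4a1 (2, 3, 8 and 0), Lyz2 (3, 4, 9 and 3) and Csf1r (4, 3, 2 and 1). Stromal and endothelial markers summed to between 0.621 and 1.56. Among ISC markers, 1 of 13 was called, and this was Cd24a, one of the antigens of the sort, which rose (log2 fold change 0.68, FDR 0.00348, edgeR). Both old pools lay below both young pools for 6 of the 13 and above for 3, against 3229 and 3288 of all 13692 genes tested. At an unadjusted p below 0.05, 4 ISC markers were lower and 2 higher. The 4 were the Wnt targets Axin2 (-0.46, FDR 0.0511) and Rnf43 (-0.41, FDR 0.0876), the sort antigen Ephb2 (-0.52, FDR 0.0576), and Sox9 (-0.28, FDR 0.247), and the 2 were Cd24a and Ascl2, a Wnt-driven stem cell factor (0.33, FDR 0.199). The part of these marker differences, and of the higher mitochondrial share in old pools, in the lower Fosb level was not tested.

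The lower Fosb level was called in each of 13 other normalizations, filters, tests and designs, with log2 fold changes between -2.03 and -1.40 and an FDR between 8.72e-05 and 0.042. When 1 of the 4 pools was left out, its log2 fold change was between -1.63 and -1.46 and passed the test in 2 of 4 cases, those with both young pools. Fos, Fosl2 and Jun were each called in 1 of the 13 alternatives, the scaling by total counts alone, and Junb, Jund and Atf3 in none.

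**Figure D5:**
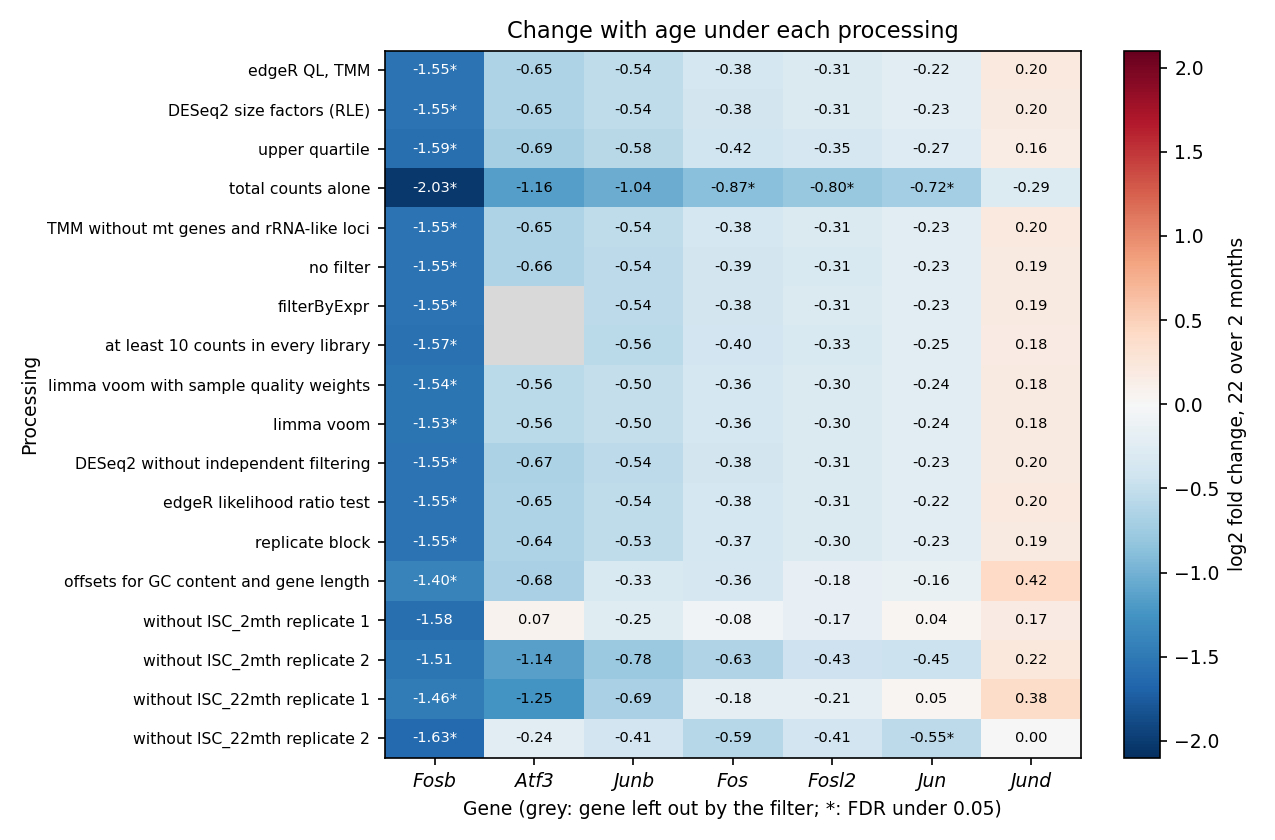
Log2 fold change of ISC_22mth over ISC_2mth (colour and number) of the 7 AP-1 members tested (x axis) under each processing (y axis), with an asterisk where the adjusted p was below 0.05 and grey where the filter left the gene out. Fosb stays between -2.03 and -1.40 throughout and loses its asterisk when either young pool is left out, and the other members have an asterisk in at most 2 settings.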

How the data were processed

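The data were SPIA-amplified, single-end RNA-seq libraries of sorted ISCs, 2 per age and each from a pool of 5 animals. The authors trimmed the reads (Trimmomatic 0.30), aligned them to GRCm38 with STAR 2.4.2a, counted them in exons of GENCODE vM15 genes with featureCounts, and deposited raw counts per gene. Ages and replicates came from the sample labels.

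Genes needed over 5 reads and over 1 CPM in at least 1 library (13692 of 52459 kept). Ages were compared with edgeR 4.0.16 (R 4.3.3) by TMM normalization, glmQLFit and glmQLFTest on all 4 libraries without covariate, with Benjamini-Hochberg adjustment over all genes kept and a threshold of FDR 0.05. Standard errors came from the log2 fold change and the F value. Alternatives were other scalings (DESeq2 size factors, upper quartile, total counts, TMM without mitochondrial and rRNA-like genes), other filters (none, filterByExpr, a minimum of 10 counts per library), other tests (voom of limma 3.58.1 alone or with sample quality weights, DESeq2 1.42.0, edgeR's likelihood ratio test), the replicate number as a block, offsets for GC content and length, and each library left out. Counts of the gene lists under each alternative were added after seeing the data. The fits were tested on simulated data.

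Members and lists were chosen with earlier results of these data known. Genes named are the 8 members, at most the 3 of lowest p in each list of pathway genes, and the 5 genes nearest to each called member by Euclidean distance of centred log2 CPM (prior of 1 count). Marker genes, heat shock genes and genes that overlap a member were named beyond this rule, with their values known. Coordinates and lengths came from GENCODE vM21 of GRCm38 and promoters from RefSeq (GRCm38.p6), matched by symbol for 7 of 8 members. Depth was between 11662654 and 15975698 counts. Poisson intervals (95%) and the floor of 3 counts cover counting error only, since reads amplified without identifiers are no independent molecules.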

Additional observations from a re-analysis of the deposited data

How the results depend on the processing

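The number of genes called was 309, and it was 4650 under total counts alone, 554 without a filter (24764 genes tested), 197 by DESeq2, 611 by the likelihood ratio test, 623 with the replicate block, 189 with GC and length offsets, and between 147 and 691 with 1 library left out. The members called lower were 1, 4 under total counts alone, and between 0 and 2 with 1 library left out. Scaling by total counts alone reversed Jund (-0.288), Atf4 (-0.097), Mapk9 (-0.179), Mcl1 (-0.161) and Mmp7 (-0.099), none of them called, and moved the median of all genes to -0.496. With 1 library left out, the log2 fold change lay between -0.551 and 0.049 for Jun, between -0.001 and 0.379 for Jund, between -1.249 and 0.068 for Atf3, between -3.16 and 0.164 for Elk3 and between -0.067 and 0.735 for Mmp7, and the cause of these reversals was not tested. Jun was reversed without ISC_2mth replicate 1 (0.039) or ISC_22mth replicate 1 (0.049).

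Replicate numbers mark different animals and did not pair the libraries (correlation over 13692 genes of the deviations of replicate 1 from the group means 0.002). With the replicate block the log2 fold change of Fosb was -1.545 (FDR 0.00118) and no other member was called. Depth limited Atf3, which the stricter filters left out, and Fosl1, which was not tested.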
